A study of Mus musculus with 4 samples.

Results

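TRIM proteins are a family of ubiquitin ligases, and their genes were taken from the table of this series by symbol, as every gene named Trim followed by a number and at most 1 further letter. This gave 54 genes of 25050 in the table, of which 44 averaged 10 normalised reads or more over the 4 libraries and were tested. The measurement was RNA sequencing of HT-22 cells, which are immortalised and derive from the mouse hippocampus. The groups were 2 libraries of HT-22 cells overexpressing Nsmce1 and 2 libraries of wild type HT-22 cells. The series' description also calls the controls cells in which an inducible Nsmce1 was left uninduced. The promoter of the Nsmce1 construct, and whether the overexpressing cells are a clone or a pool, are not given in the sources used here, so an effect of Nsmce1 cannot be told apart from other differences between the cell populations.

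A TRIM protein carries a RING finger, B-box zinc fingers and a coiled coil, in that order, and most TRIMs transfer ubiquitin to a substrate that their C-terminal domain recognises. The C-terminal domain divides the family: a PRY-SPRY domain in most antiviral TRIMs, a PHD finger with a bromodomain in the chromatin corepressors, NHL repeats in proteins that bind RNA or other partners, and a COS box in those that bind microtubules. Many TRIM genes are induced by interferon and act on the sensing of viral nucleic acid. The overexpressed Nsmce1 is itself a RING protein: it sits in the SMC5/6 complex beside Nsmce3, a protein of the MAGE family, and other MAGE proteins bind TRIM27 and TRIM28 in human cells.

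Reads assigned to genes came to 32516117 and 44602989 in the overexpressing libraries and to 25787452 and 31010351 in the wild type libraries. Nsmce1 had 17851 and 16525 normalised reads in the overexpressing libraries, against 1108 and 1206 in the wild type libraries, as the labels have it. The label calls the cells neurons, but of 16 neuronal markers 5 passed the minimum for testing and summed, with the rest of the list, to 1520 and 1853 normalised reads in the overexpressing and 1872 and 1741 in the wild type libraries. The sum of the fibroblast list, led by collagens and fibronectin, was 497019 and 427580 in the overexpressing and 521904 and 458283 in the wild type libraries. Gap43, a neuronal growth cone protein, had 7 and 0 in the overexpressing and 23.9 and 44.2 in the wild type libraries (log2 fold change -3.57, limma adjusted p = 0.460). At an unadjusted p under 0.05, the lower markers were Gap43 of 5 tested neuronal and Postn and Col3a1 of 9 tested fibroblast genes. Aldh1l1 of 2 tested astrocyte and Tmem119 of 3 tested microglial and leukocyte genes were also lower, and Slc1a3 of the astrocyte list was higher. The oligodendrocyte and endothelial lists, with 3 tested genes each, had 0 at that level. Of all tested genes, 3.6% were lower and 4.32% higher at that level. Limma called 0 of the genes of any marker list. Ptprc, which defines leukocytes, was at 0 in both overexpressing libraries and at 6.29 and 0 in the wild type libraries. The part of these markers in the results below was not tested. The labels do not state whether the duplicates were grown separately, so each p-value reflects only how far these particular samples scatter. For 1 gene, an exact permutation test of 2 libraries against 2 cannot give a two-sided p below 0.333. The tests below come from limma, which pools the spread over all 15540 tested genes, with Benjamini-Hochberg adjustment over all of them.

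The 54 genes summed to 70137 and 68661 normalised reads in the overexpressing libraries and to 74916 and 70912 in the wild type libraries. Of the 44 tested genes, 22 lay above 0 and 22 below 0, with a median log2 fold change of -0.00014, against 0.0054 over all genes tested. At an adjusted p under 0.05, 1 TRIM gene fell in the overexpressing cells and 0 rose, where 0.193% of all tested genes were called, 0.0901% lower and 0.103% higher. At an unadjusted p under 0.05 there were 5 lower TRIM genes and 1 higher, which is 13.6% of the tested members, against 7.92% of all tested genes (3.6% lower and 4.32% higher). These were Trim26, Trim30d, Trim8, Trim30a and Trim16, all lower in the overexpressing cells, and Trim2, which was higher. In 18 of the 44 members, or 40.9%, the groups did not overlap, against 39.1% of all tested genes. Of the 18, 8 were higher and 10 lower in the overexpressing cells, against 20.8% and 18.3% of all tested genes, so the count is near the background. The log2 fold change was within 0.2 of 0 in 26 members, and in 30 members the 95% interval lay wholly between -1 and 1.

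**Figure D1:**
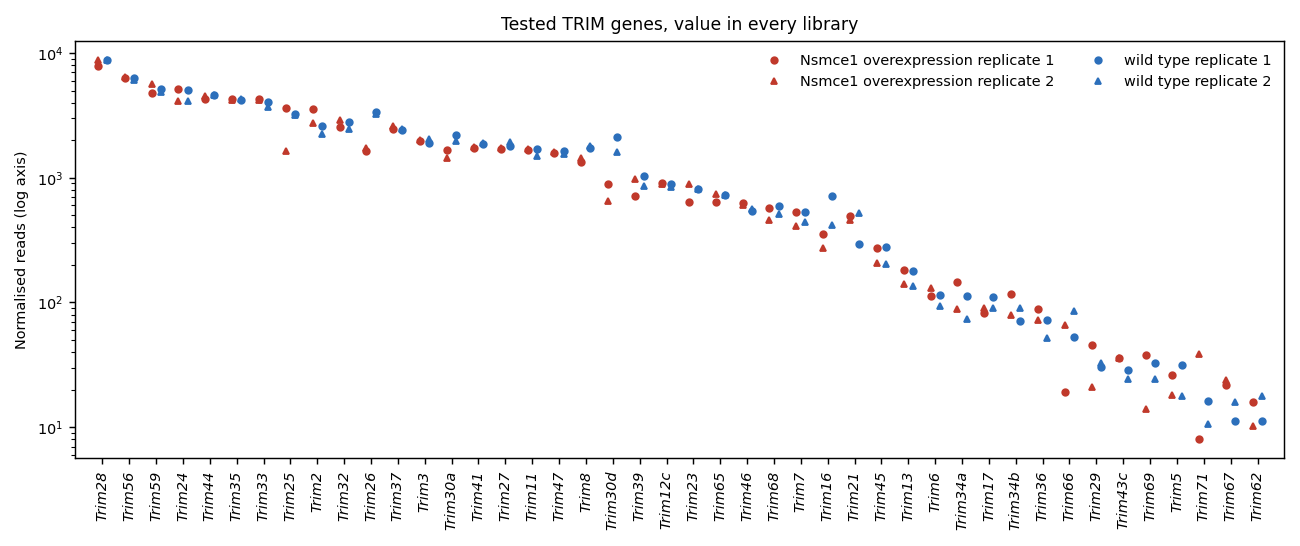
Normalised reads (log axis) of the 44 tested TRIM genes in each of the 4 libraries, ordered by mean level, with red for Nsmce1 overexpression and blue for wild type. Trim26 and Trim30d stand out by red points well below blue ones, and Trim25 by a single low red triangle at 1647 normalised reads.

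**Figure D2:**
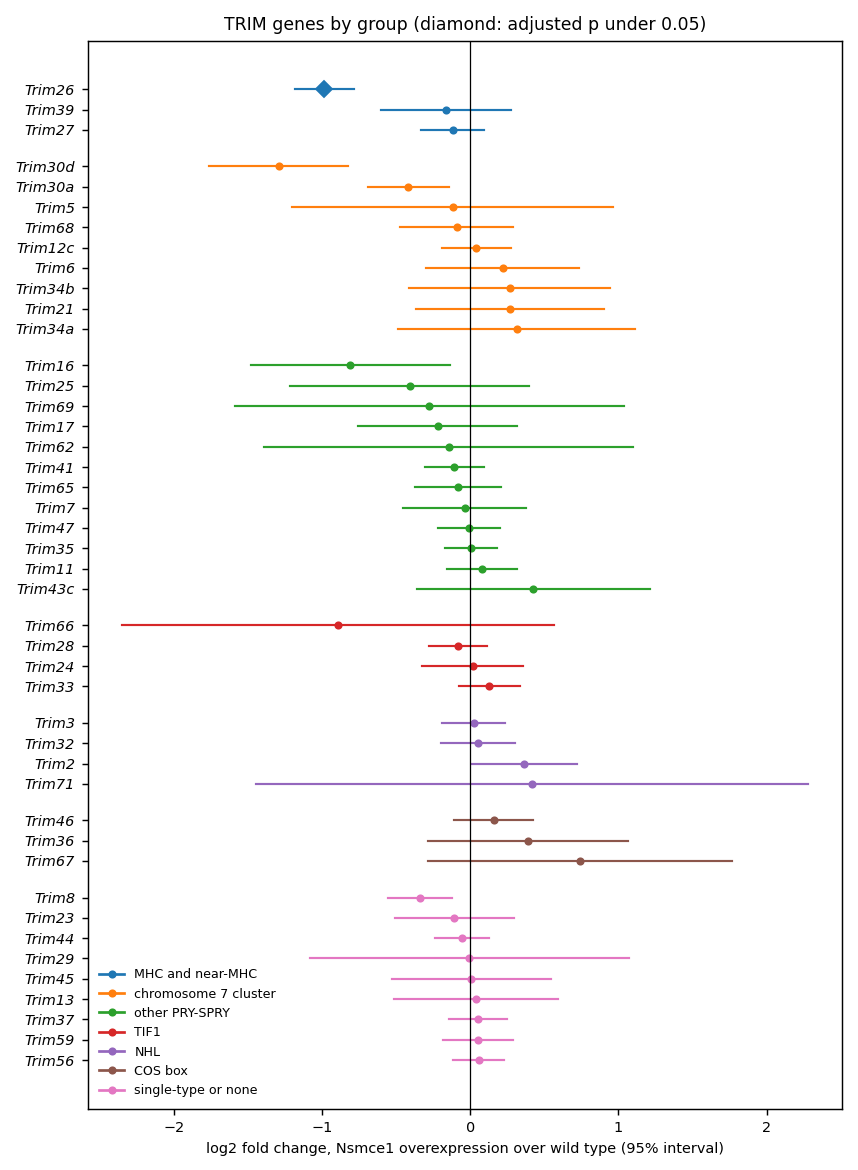
Log2 fold change of overexpression over wild type with its 95% interval (limma) for the 44 tested TRIM genes, grouped by domain or gene cluster. Trim26 at -0.98 is the 1 gene marked with a diamond for an adjusted p under 0.05, and the widest intervals belong to genes with few reads, such as Trim71 and Trim66.

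Trim26 encodes a PRY-SPRY TRIM ligase that has been studied in human and mouse cells for its control of interferon-beta induction, and its gene lies in the major histocompatibility complex on chromosome 17. It had 1631 and 1723 normalised reads in the overexpressing libraries and 3373 and 3258 in the wild type libraries. The overexpressing libraries were thus close to each other and far below both wild type libraries. Trim26 fell by 0.98 on the log2 scale, or 1.98-fold, with a 95% interval of -1.18 to -0.78 (SE 0.0820, limma adjusted p = 0.0175). The fold was similar without any single library, at -1.02 to -0.94 on the log2 scale. The call was lost without wild type replicate 1 (limma adjusted p = 0.176), without wild type replicate 2 (adjusted p = 0.154) and with limma fitted without a trend (adjusted p = 0.252). These fits called 0.0129%, 0.0579% and 0.0579% of all tested genes. Without overexpression replicate 2, where 0.483% of all tested genes were called, Trim26 stayed called (limma adjusted p = 0.0227). Limma voom on the recovered reads, which called 0.135% of all tested genes, also called Trim26 (adjusted p = 0.0178). Over all alternatives the limma adjusted p of Trim26 lay between 0.00385 and 0.252.

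Trim26 was the 1 gene called among the 3 tested TRIM genes whose human counterparts lie in or near the major histocompatibility complex. Trim39, the next but one tested gene on one side, encodes a ligase known in cell death and the cell cycle and had 710 and 980 normalised reads in the overexpressing and 1024 and 853 in the wild type libraries, so the groups overlapped. Trim27, which lies on chromosome 13 in the mouse, is a partner of MAGE proteins in human cells. It had 1686 and 1736 in the overexpressing and 1796 and 1919 in the wild type libraries (log2 fold change -0.12, interval -0.33 to 0.09). Among the 5 nearest tested genes on each side of Trim26, limma called 0, where 0.193% of all tested genes were called. At an unadjusted limma p under 0.05 there were 2, H2-M10.1 and H2-M5, and these were lower. Of all tested genes, 3.6% were lower at that level. H2-M10.1, a class I histocompatibility gene and the nearest tested gene on the side of Trim39, had 9 and 16.8 normalised reads in the overexpressing libraries and 99.3 and 71.6 in the wild type libraries (log2 fold change -2.68, SE 0.411, limma adjusted p = 0.114). H2-M5, a class I gene on the other side, had 41 and 24.8 in the overexpressing and 59.1 and 56.9 in the wild type libraries (log2 fold change -0.84, limma adjusted p = 0.625). Between Trim26 and H2-M5, Ppp1r11, a phosphatase inhibitor, and Znrd1, a subunit of RNA polymerase I, had log2 fold changes of 0.22 and 0.25, while Znrd1as and Zfp57 on the same side stood at -0.20 and -0.56. Neighbours on that side thus lay in both directions. Over chromosome 17 as a whole, the tested genes had a median of -0.026 on the log2 scale.

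The chromosome 7 group holds antiviral PRY-SPRY genes, some of them duplicated in rodents. Trim30d and Trim30a were its low members in the overexpressing cells. Trim30a is known in mouse macrophages as an inhibitor of NF-kB signalling that removes the adaptors TAB2 and TAB3, while Trim30d is a less studied copy. Trim30d had 885 and 647 normalised reads in the overexpressing libraries and 2129 and 1619 in the wild type libraries. Every overexpressing value lay below every wild type value, although the libraries within each group differed by more than 1.3-fold. On the log2 scale Trim30d differed by -1.29 (interval -1.76 to -0.82, SE 0.193), and limma's adjusted p of 0.107 did not pass. Trim30d passed when the replicate number was a block (limma adjusted p = 0.00533), a fit that called 0.386% of all tested genes. The replicate numbers are shared between the groups only as numbers, so this block is not a known pairing. Without overexpression replicate 1 the log2 fold change of Trim30d was -1.52. Trim30a had 1680 and 1442 normalised reads in the overexpressing and 2199 and 1964 in the wild type libraries, again without overlap (log2 fold change -0.42, interval -0.69 to -0.14, limma adjusted p = 0.413). Trim30b was too low to be tested, at 3 and 2.92 normalised reads in the overexpressing and 15.1 and 9.48 in the wild type libraries. Trim30c, also untested, was at 0 and 21.2 in the overexpressing and 2.51 and 12.6 in the wild type libraries, with no order between the groups. Of all distinct windows of 50 bases in the annotated Trim30d transcripts, 7.49% also occur in another gene, mostly Trim30a, and Trim30d also overlaps the gene Gm16464 on its strand.

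The other tested members of the chromosome 7 group did not follow the Trim30 genes. Trim21, the cytosolic Fc receptor that targets antibody-bound virus, had 492 and 455 normalised reads in the overexpressing and 297 and 519 in the wild type libraries. Trim12c, a relative of the retroviral restriction factor TRIM5, was the most even gene of the group, at 902 and 888 in the overexpressing and 888 and 851 in the wild type libraries. Trim34a, Trim34b and Trim6 lay at log2 fold changes of 0.31, 0.27 and 0.22, with intervals that all included 0. Trim5 and Trim68 lay at -0.12 and -0.09. Trim34b shares 56.8% and Trim34a 39.8% of their windows with another gene, and Trim5 and Trim12c 36.3% and 33.0%, so the division of reads within these pairs is uncertain. In all, 5 of the 9 tested members lay above 0 and 4 below 0, with a median of 0.042.

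**Figure D3:**
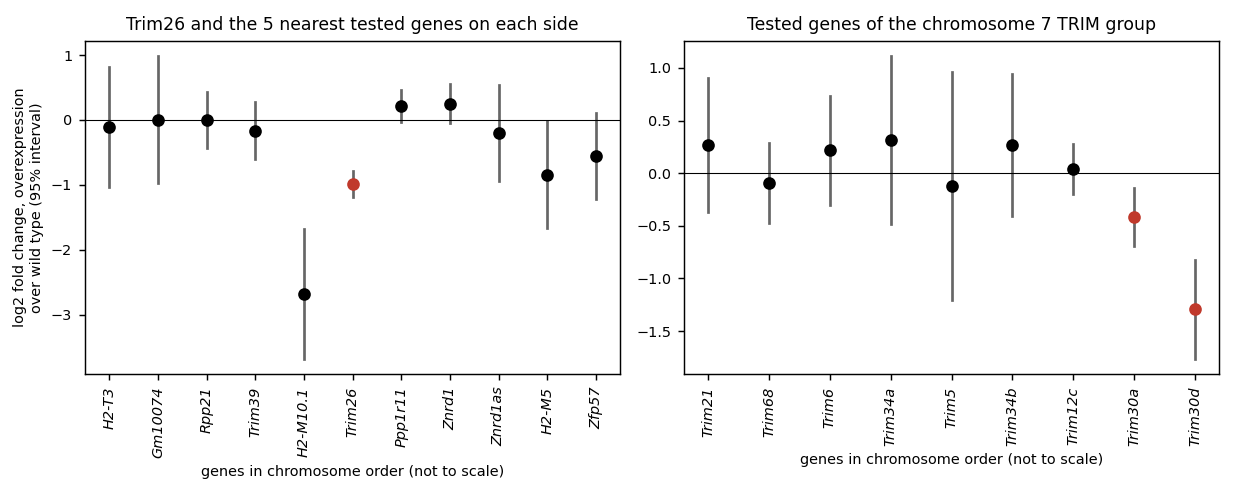
Log2 fold change of overexpression over wild type with 95% interval (limma), genes in chromosome order. On the left, Trim26 (red) at -0.98 stands between H2-M10.1 at -2.68 and Ppp1r11 at 0.22, and on the right Trim30a and Trim30d (red) lie at -0.42 and -1.29 while the other 7 genes of the group have intervals that include 0.

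The upstream sequences of Trim26, Trim30a and Trim30d are shown, the lower members at an unadjusted p under 0.05 that have a promoter entry. Trim2, the higher member at that level, was left out because its match does not lie before a start. Each printed sequence holds the core of an interferon-stimulated response element (ISRE), which is GAAA, any 2 bases and GAAA. The core is read here on the opposite strand as TTTC, any 2 bases and TTTC. The printed sequences are the 250 bases before the RefSeq start, from build GRCm38.p6, read 5′ to 3′ in the direction of the gene. The capitals mark the motif. Trim26 lies on the plus strand (chr17:36836896-36837145) and Trim30a (chr7:104465194-104465443) and Trim30d (chr7:104507850-104508099) on the minus strand. Trim30a has a further RefSeq start that is not printed.
Trim26: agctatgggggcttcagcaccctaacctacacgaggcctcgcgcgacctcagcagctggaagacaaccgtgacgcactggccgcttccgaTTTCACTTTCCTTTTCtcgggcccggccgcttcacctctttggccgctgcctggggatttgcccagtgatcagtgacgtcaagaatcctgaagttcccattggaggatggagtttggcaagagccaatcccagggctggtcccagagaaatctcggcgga
Trim30a: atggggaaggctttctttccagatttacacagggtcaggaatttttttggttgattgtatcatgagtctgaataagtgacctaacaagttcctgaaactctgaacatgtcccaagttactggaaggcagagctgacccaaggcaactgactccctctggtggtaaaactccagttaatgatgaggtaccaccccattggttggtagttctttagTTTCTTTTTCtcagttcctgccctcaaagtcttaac
Trim30d: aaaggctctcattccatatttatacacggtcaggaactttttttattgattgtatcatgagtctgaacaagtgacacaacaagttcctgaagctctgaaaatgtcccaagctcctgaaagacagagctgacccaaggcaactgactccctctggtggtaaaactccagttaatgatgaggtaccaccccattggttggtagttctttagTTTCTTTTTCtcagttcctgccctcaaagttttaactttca

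The Trim26 capitals are 2 overlapping matches, TTTCACTTTC and TTTCCTTTTC. The Trim30a and Trim30d matches are the same letters, TTTCTTTTTC. The upstream sequences of the pair are identical at 227 aligned bases and differ at 18, with 10 further positions opposite a gap. A search of both strands over 300 bases, 250 before and 50 after the start, found the motif in 9 of 54 promoter entries of TRIM genes (16.7%), against 3.44% of all 32851 promoter entries and 36.0% of the 25 entries of the interferon-stimulated list. The entries cover 40 of the 54 TRIM genes. The motif was in those of Trim26, Trim30a, Trim30d, Trim2, Trim12c, Trim21, Trim34a and Trim5. The matches of Trim2, Trim21 and Trim34a begin after the start, as does that of the further Trim30a start. Trim2 also has entries without a match. Trim12c and Trim21, which hold the motif, had overlapping or nearly equal groups, so a match did not go with a low value in every member. Trim30b, Trim66 and Trim25, whose means were also lower in the overexpressing cells, have entries with no match, which says only that these letters are not in those windows. A match is a description of these letters and does not show that a factor binds there.

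Among the other PRY-SPRY genes, 3 of the 12 tested members lay above 0 and 9 below 0, with a median of -0.094, and 0 called by limma or by limma voom, and 1 at an unadjusted p under 0.05. That gene was Trim16, which lacks a RING finger and acts in human cells in the removal of damaged lysosomes. It had 352 and 276 normalised reads in the overexpressing and 721 and 415 in the wild type libraries (log2 fold change -0.81, interval -1.48 to -0.14, limma adjusted p = 0.549). The groups did not overlap, but the wild type libraries differed 1.74-fold from each other, and Trim16 overlaps Fbxw10 on the same strand. Trim41, a ligase first found as a binder of protein kinase C, had close replicates on both sides, at 1740 and 1749 in the overexpressing and 1875 and 1885 in the wild type libraries (log2 fold change -0.11, interval -0.31 to 0.09). Trim35 had the log2 fold change nearest to 0 among the abundant TRIM genes, at 4295 and 4213 in the overexpressing and 4238 and 4242 in the wild type libraries. Trim11, Trim47 and Trim65 had log2 fold changes of 0.08, -0.0076 and -0.08, and Trim47 and Trim65 overlap each other on the same strand. Trim43c, a rodent copy of unknown role, had 36 and 35.8 in the overexpressing and 28.9 and 24.2 in the wild type libraries (log2 fold change 0.43, interval -0.36 to 1.21), and shares 42.1% of its windows with another gene. Trim7, Trim17, Trim62 and Trim69 stood at -0.04, -0.22, -0.14 and -0.28.

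Trim25, the ligase that activates the RNA sensor RIG-I and is induced by interferon, had the widest gap between the overexpressing libraries, 2.18-fold, among the 20 TRIM genes with a mean of at least 1000 normalised reads. It had 3596 and 1647 normalised reads in the overexpressing libraries and 3253 and 3206 in the wild type libraries. Overexpression replicate 1 was thus above both wild type libraries, and replicate 2 was below both. The log2 fold change of -0.41 had an interval of -1.21 to 0.40 (limma adjusted p = 0.793). Leaving out overexpression replicate 2 gave 0.16. Leaving out replicate 1 gave -0.97, which passed (limma adjusted p = 0.0343). Among the 6650 genes with a mean of at least 1000 normalised reads, overexpression replicate 2 was more than 1.5-fold below the lowest of the other libraries in 18, or 0.271%, and Trim25 was the 1 TRIM gene of 20 at that level to be among them. This 1.5-fold measure was chosen after the values of Trim25 were seen. The other libraries stood as low in 15 to 27 genes each. Ube2v1, the inactive E2 variant that builds lysine 63 chains with Ube2n, also had a low overexpression replicate 2, at 2280 and 557 in the overexpressing and 2647 and 2763 in the wild type libraries, although there both overexpressing values were below both wild type values.

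**Figure D4:**
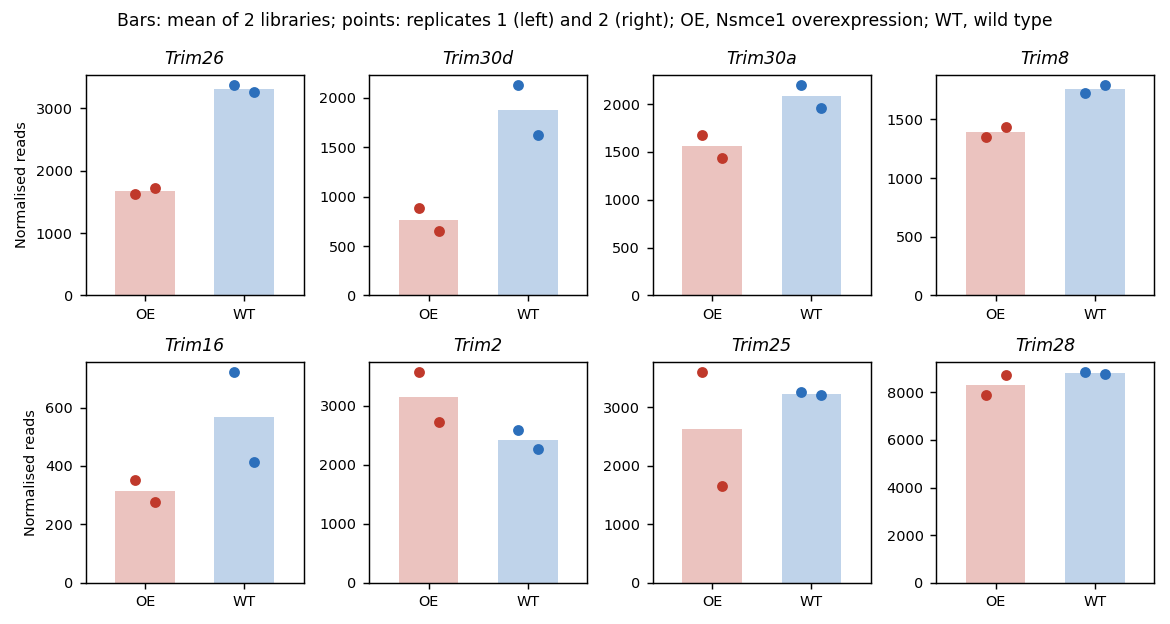
Normalised reads of 8 TRIM genes in each library (points) with the group mean (bars), Nsmce1 overexpression (OE) left of wild type (WT). Trim26, Trim30d, Trim30a, Trim8 and Trim16 have both OE points below both WT points, Trim2 has both above, Trim25 has OE points of 3596 and 1647 on either side of wild type, and Trim28 is nearly level.

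The corepressors of the TIF1 group, which carry a PHD finger and a bromodomain, were abundant apart from Trim66, and 0 of the 4 were called by limma or limma voom or reached an unadjusted p under 0.05. Trim28, which silences retroelements when recruited by KRAB zinc finger proteins, had the highest level of the family, at 7908 and 8739 normalised reads in the overexpressing and 8839 and 8753 in the wild type libraries (log2 fold change -0.08, interval -0.28 to 0.11). Trim24, a cofactor of nuclear receptors that also targets p53, had 5136 and 4135 in the overexpressing and 5019 and 4130 in the wild type libraries, with the same gap within each group. Trim33, a regulator of SMAD signalling, had 4248 and 4230 in the overexpressing and 4083 and 3682 in the wild type libraries (log2 fold change 0.13, interval -0.08 to 0.33). These intervals do not reach a 2-fold change in either direction. Trim66 was low and scattered, at 19 and 66.4 in the overexpressing and 52.8 and 85.3 in the wild type libraries, with an interval of -2.35 to 0.56. Leaving out overexpression replicate 1 gave -0.015 on the log2 scale, and leaving out replicate 2 gave -1.77.

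All 4 genes with NHL repeats lay above 0, with a median log2 fold change of 0.21 and 0 called by limma or limma voom, and 1 at an unadjusted p under 0.05. Trim2, which ubiquitinates the neurofilament light chain in mouse neurons, had 3563 and 2729 normalised reads in the overexpressing and 2593 and 2257 in the wild type libraries. Both overexpressing values were above both wild type values, by a small margin over wild type replicate 1 (log2 fold change 0.37, interval 0.012 to 0.72, limma adjusted p = 0.618). Leaving out overexpression replicate 1 gave 0.17 for Trim2, and the unadjusted p was 0.0533 with limma voom and 0.0609 with chromosome medians removed. Trim3, a ligase of postsynaptic scaffold proteins in rat neurons, was level at 1986 and 2024 in the overexpressing and 1894 and 2058 in the wild type libraries. Trim32, mutated in a human limb-girdle muscular dystrophy, had 2571 and 2902 in the overexpressing and 2789 and 2480 in the wild type libraries. Trim71, a stem cell protein that is a target of let-7, had 8 and 38.7 in the overexpressing and 16.3 and 10.5 in the wild type libraries. Its log2 fold change was 0.42, and -0.65 without overexpression replicate 2.

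The microtubule-binding COS box genes with a Trim symbol had 3 tested members, all with higher and separated values in the overexpressing libraries. Of all tested genes, 20.8% were so. Limma and limma voom called 0 of the 3, and 0 had an unadjusted p under 0.05. Mid1 and Mid2, which also carry a COS box but have other symbols, had overlapping groups, with log2 fold changes of -0.15 and 0.013. Trim46, which bundles microtubules at the start of the axon, had 631 and 609 normalised reads in the overexpressing and 544 and 567 in the wild type libraries (log2 fold change 0.16, interval -0.11 to 0.42). Trim36 had 89 and 73.0 in the overexpressing and 72.9 and 51.6 in the wild type libraries, so that the groups were parted by less than a read. Trim67, a brain TRIM that binds a netrin receptor in mouse, had 22 and 24.1 in the overexpressing and 11.3 and 15.8 in the wild type libraries (log2 fold change 0.74, interval -0.29 to 1.77, limma adjusted p = 0.722).

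Of the 9 tested genes with another C-terminal domain or none, 5 lay above 0 and 4 below 0, and Trim8 had the lowest p. Trim8, a ligase that in human cells modulates NF-kB, STAT3 and p53 signalling, had 1350 and 1434 normalised reads in the overexpressing and 1728 and 1791 in the wild type libraries. The replicates were close and the groups did not overlap (log2 fold change -0.34, interval -0.55 to -0.12, limma adjusted p = 0.395). Trim56, an antiviral TRIM linked to STING and TLR3 signalling, had 6324 and 6470 in the overexpressing and 6264 and 6043 in the wild type libraries. Trim59, which is anchored in membranes, had 4822 and 5597 in the overexpressing and 5168 and 4842 in the wild type libraries. Trim44, which has a ubiquitin-protease-type zinc finger in place of the RING, had 4309 and 4554 in the overexpressing and 4600 and 4608 in the wild type libraries. The intervals of Trim56, Trim59 and Trim44 all lay between -0.24 and 0.29. The centrosomal ligase Trim37 stood at 0.05, the GTPase-like Trim23 at -0.11, and Trim13, Trim45 and Trim29 within 0.04 of 0.

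Another 10 TRIM genes were in the table below the minimum for testing, and their highest library value was 21.2 normalised reads, for Trim30c. Trim14, an adaptor at MAVS without a RING, had 5 and 4.38 normalised reads in the overexpressing libraries and 0 in both wild type libraries. Its mean in the overexpressing libraries was 2.73 times a floor of 3 reads over the 2 wild type libraries. Trim72, the muscle membrane repair protein, had 3 and 1.46 in the overexpressing libraries and 0 in both wild type libraries. Its mean in the overexpressing libraries was 1.30 times the same floor. Trim38 and Trim50 had 2 reads or fewer in 1 overexpressing library, and Trim31 had 2 reads in wild type replicate 1, with 0 in every other library. The floor covers counting error in the wild type libraries only, so 2.73 and 1.30 are not lower bounds on the change. Counting error of the few reads in the overexpressing libraries was left out, as was any other spread between libraries. Presence and absence cannot be told apart for these genes. Trim15, Trim43b and Trim52 were at 0 in at least 1 wild type library and between 0 and 10.9 in the overexpressing libraries.

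Levels were compared between genes per kilobase of annotated exon, which removes the effect of transcript length but counts every annotated exon, used or not. On this scale Trim28 led with 2002 normalised reads per kilobase in overexpressing and 2115 in wild type cells, followed by Trim59 with 1554 in overexpressing and 1493 in wild type cells. Trim35, Trim32 and Trim44 followed between 785 and 921 per kilobase in overexpressing cells and between 816 and 918 in wild type cells, where Trim32 and Trim44 differed by less than their spread between libraries. Trim2, the gene with the ninth highest count, dropped to rank 27 of 54 per kilobase in wild type cells where its annotated exons sum to 19751 bases. Trim30a, Trim30d and Trim26 were alike in wild type cells, at 506, 499 and 483 per kilobase. In overexpressing cells they were apart, at 380, 204 and 244 per kilobase. As these are bulk libraries, fewer cells with a transcript and less of it per cell cannot be told apart.

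The genes that work with TRIM proteins were described from lists of the pathway. Of 28 tested interferon-stimulated genes, 16 lay above 0 and 12 below 0, with a median log2 fold change of 0.11, against 0.0054 over all tested genes. Limma and limma voom called 0 of them, and 4 had an unadjusted p under 0.05, all higher in the overexpressing cells, where 4.32% of all tested genes were higher at that level. Oas1a, which makes the second messenger of RNase L, had 165 and 139 normalised reads in the overexpressing and 74.2 and 43.2 in the wild type libraries (log2 fold change 1.40, limma adjusted p = 0.284). Dtx3l, Parp9 and Mx1 lay at 0.31, 0.26 and 0.74. All these 3 are on chromosome 16, where the median over tested genes was 0.17 on the log2 scale. With chromosome medians removed they stood at 0.14, 0.093 and 0.57, with unadjusted limma p-values of 0.193, 0.342 and 0.0685, and of the 4 only Oas1a remained under 0.05. Irf7 and Isg15, which report interferon signalling, had log2 fold changes of -0.00093 and -0.03.

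Among 20 tested genes of nucleic acid sensing and NF-kB signalling, 11 lay above 0 and 9 below 0 (median 0.07), and limma and limma voom called 0. At an unadjusted p under 0.05 there were 5 of the 20, all higher in the overexpressing cells, against 4.32% of all tested genes. Map3k7, the kinase TAK1, had 4022 and 4311 normalised reads in the overexpressing and 2984 and 3109 in the wild type libraries (log2 fold change 0.45, SE 0.0804, limma adjusted p = 0.168). Traf3, an adaptor for interferon induction, had 1385 and 1784 in the overexpressing and 1037 and 929 in the wild type libraries (log2 fold change 0.68, limma adjusted p = 0.265). Nfkbia, the inhibitor of NF-kB and one of its targets, stood at 0.33. Tab2, the TAK1 adaptor removed by TRIM30 in mouse, had 5216 and 5249 in the overexpressing and 4391 and 4292 in the wild type libraries. Tab2 and Tbk1 are on chromosome 10, whose tested genes had a median of 0.14, and their log2 fold changes of 0.27 and 0.29 became 0.13 and 0.15 with chromosome medians removed, with unadjusted limma p-values of 0.121 and 0.249. The RNA sensor gene Ddx58 and its adaptor Mavs, on the path where Trim25 acts, stood at -0.13 and -0.11.

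The enzymes and partners that TRIM ligases need were mostly level. Of 15 ubiquitin-activating and ubiquitin-conjugating enzymes, 8 lay above 0 and 7 below 0 (median 0.018), with 0 called by limma or limma voom and 1 at an unadjusted p under 0.05. That was Ube2d1, an E2 used by many RING ligases, at 0.24, and on chromosome 10. Among 12 genes of KRAB and TRIM28 silencing, 5 lay above 0 and 7 below 0 (median -0.03), with 0 called by either and 0 at an unadjusted p under 0.05. Zfp57, a KRAB zinc finger protein of imprinted loci that is also a neighbour of Trim26, had 850 and 792 normalised reads in the overexpressing and 885 and 1647 in the wild type libraries, so its log2 fold change of -0.56 rested on wild type replicate 2. The histone methyltransferase gene Setdb1 stood at 0.11. Of the 9 tested genes in the list of MAGE genes and SMC5/6 subunits, which also holds Usp7, Nsmce1 was the 1 gene called. Its MAGE partner Nsmce3 had 697 and 689 in the overexpressing and 601 and 720 in the wild type libraries. Usp7, a deubiquitinase that works with TRIM27, stood at 0.27 on chromosome 16 and at 0.10 with chromosome medians removed. The 5 tested TRIM family genes with other symbols lay between -0.15 and 0.15, among them Pml at 0.15 and Mid1 at -0.15.

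**Figure D5:**
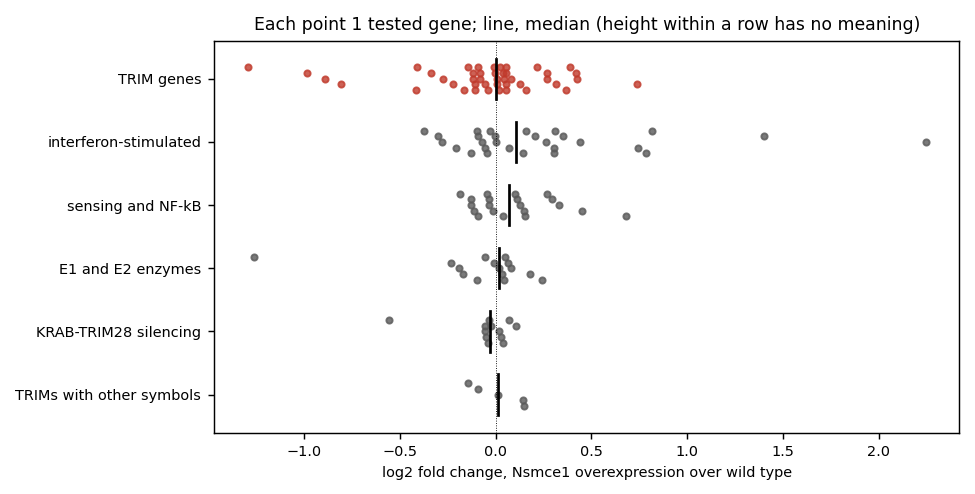
Log2 fold change of overexpression over wild type for the 44 tested TRIM genes and 5 lists of genes that work with them, 1 point a gene and a line at the median. The medians lie between -0.03 and 0.11, and the TRIM genes reach lowest with Trim30d at -1.29.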

How the data were processed

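Per the labels' protocols, Trizol was used for RNA and a TruSeq kit for libraries, which were read on a BGISEQ500. Per the submitters' processing notes, HISAT, Cufflinks and the build mm9 were used. Versions, counting and strand use are not given in the sources used here. Per gene and library the authors deposited normalised reads on a log2 scale, after 1 was added; nothing states this unit, which was inferred from the values. On the linear scale, 100% of values were whole multiples of 1 step within 0.01 read, and the step was 1.00 and 0.730 in the overexpressing and 1.26 and 1.05 in the wild type libraries.

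Limma 3.58.1 (R 4.3.3) with a mean-variance trend was fitted to the deposited log2 values of the 15540 genes with a mean of at least 10 normalised reads, with group as the only term. Tests are two-sided, and the threshold is a Benjamini-Hochberg adjusted p of 0.05. The prior had 4.10 and the test 6.10 degrees of freedom. Adding 1 before the log2 understates the change of low genes. The steps were tested on simulated data. Alternatives were other pseudocounts, filters, scalings and variance models, limma voom on the recovered reads, removal of chromosome medians, a replicate block and leaving out each library. Duplicates were deposited as separate samples, and the chi-square per gene between them averaged 25.7 in overexpressing and 18.1 in wild type cells. That is more spread than counting alone gives, and it does not show how the duplicates were made.

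Chromosomes, exon lengths, overlaps and transcript windows came from GENCODE M21 (GRCm38) by Ensembl identifier, and promoters from RefSeq (GRCm38.p6), with 40 of 54 TRIM symbols matched. The files' build differs, so only the promoters carry coordinates. The members, the lists and the tests were chosen with earlier results of these data known. Named are the TRIM genes past the threshold or with an unadjusted p under 0.05, the 8 with the highest level, the 10 with the largest change, those with 0 reads in 1 group only, and the 2 with the smallest p of each list, and other members are named to complete a group, after their values were seen. The planned search for a RING signature in protein sequences was not run.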

Additional observations from a re-analysis of the deposited data

How the results depend on the processing

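Trim26 kept its direction under all alternatives. Its log2 fold change was -0.98 with limma without a trend, where it missed the threshold, and -1.02 to -0.94 over the fits that leave out a library, where it missed the threshold without either wild type library. The count of TRIM genes past the threshold was 1, and it became 0 with limma without a trend, 2 with the replicate number as a block (Trim26 and Trim30d) and 0 to 3 when a library was left out (Trim26, Trim30d and Trim25 without overexpression replicate 1). The count over all genes was 30, and it became 16 without a filter, 18 with quantile normalization, 9 without a trend, 72 with robust variances, 60 with the block, 69 at an adjusted p under 0.1 and 2 to 75 when a library was left out. The median log2 fold change of the tested TRIM genes was -0.00014 and lay between -0.049 and 0.047 when a library was left out. The causes were not tested. When a library is left out, a group holds a single library, whose spread is taken from the pair of the other group.

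The replicate numbers are shared between the groups only as numbers: the deviations of the same-numbered libraries correlated across genes with r = 0.00682. For the other 21 named and tested TRIM genes, 320 of 333 values kept their direction and side of the threshold, 3 passed it and 10 changed sign without being called, in genes near 0 or with uneven replicates (Trim24, Trim25, Trim35, Trim59 and Trim71). The interval reached past a log2 change of 1 in 14 tested TRIM genes, of which all but Trim26, Trim30d, Trim25, Trim16 and Trim34a averaged under 100 normalised reads. At that depth counting error is largest. The libraries of the overexpressing group lay at least 2.17-fold apart for Trim29, Trim66, Trim69 and Trim71, and for Trim25, which is not at that depth.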
